A study of Saccharomyces cerevisiae with 12 samples.

Results

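The p24 cargo receptor family of budding yeast was followed from growth into stationary phase. It was taken as the 8 genes EMP24, ERV25, ERP1, ERP2, ERP3, ERP4, ERP5 and ERP6. They were matched by the gene symbol of the array's annotation, and each was measured by 1 probe set, out of 5449 S. cerevisiae genes measured. The family was selected on its array levels over these 4 times, which were already known, so every difference of a member is given as a description of these arrays, and a call is read only beside the share of all genes called. Cells of the yeast strain CENPK 113-7D were kept in batch culture on synthetic medium with glucose, and total RNA was hybridised to Affymetrix arrays. There were 12 arrays, 3 in logarithmic growth (log phase) and 3 each on days 2, 6 and 10. All 4 groups share the strain and the medium, and no treatment other than time was applied. The sample labels place the days within stationary phase while the series text speaks of days of cultivation, so their starting point is not settled. Whether the 3 arrays of a time are separate cultures is not stated, and the errors below may therefore be technical only.

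The p24 proteins are small transmembrane proteins that cycle between the endoplasmic reticulum (ER) and the Golgi apparatus in vesicles. They form hetero-oligomers and sort cargo into vesicles that bud with the COPII coat, and in yeast they are best known for the export of proteins held by a glycosylphosphatidylinositol (GPI) anchor, such as the cell wall enzyme Gas1. COPI vesicles return them to the ER. The family has 4 subfamilies, named alpha to delta. In yeast the alpha subfamily holds Erp1, Erp5 and Erp6, the gamma subfamily holds Erp2, Erp3 and Erp4, Emp24 is the beta member and Erv25 the delta member. Emp24, Erv25, Erp1 and Erp2 are the subunits of the best described complex, and loss of 1 of them destabilises the others.

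Levels are the deposited log2 values. A level depends on the probes of its gene, so levels are compared between times of a gene and never between genes. Differences are on the same log2 scale, with the standard error (SE) of a limma fit to all 12 arrays. A gene is called when its Benjamini-Hochberg adjusted p over all 5449 genes is below 0.05. The array carries 1746 probe sets for another yeast species, and the 95th percentile of their means, 5.82, served as the background. The mean of each of the 8 members over the 12 arrays lay above it. Among the checks of the labels, 7 of 7 stationary phase genes such as HSP26 were higher on day 2 than in log phase. Lower were 5 of 5 measured ribosomal protein genes. Of all genes, 39% were called higher and 41.5% lower in that comparison. In log phase the third array was higher than the other 2 in HSP26 (9.12 against 7.78 and 7.74) and likewise in HSP12, another of these genes. In SPG4, also of this list, the third array was lower (7.11 against 8.04 and 7.84). The mating type genes did not give a single type on day 2, where 7 of 7 genes specific to MATa cells and 3 of 4 specific to MATalpha cells were called higher than in log phase. The alpha-factor gene MF(ALPHA)1 was at 10.28, 10.65 and 10.51 on day 2, against 5.95, 6.09 and 6.00 in log phase, and no day 6 or day 10 array exceeded 6.69. On each of days 6 and 10, 2 of the 4 MATalpha genes were called higher than in log phase, beside 41.6% and 39.5% of all genes. Of the 7 MATa genes 2 were called higher and 3 lower on day 6, and 0 higher and 5 lower on day 10. Lower on these days were 41.1% and 39.8% of all genes. The part of this mixed mating type signal in the day 2 values was not tested. Fits that left day 2 out had 8 of 8 p24 members lower than log phase on days 6 and 10. Those differences do not use the day 2 values, so these fits cannot show what part the signal has. The median of all genes per array was between 7.80 and 7.89. In RNA from a whole culture, fewer cells expressing a gene and less of its RNA per cell cannot be told apart.

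All 8 members were lower on each of the 3 stationary days than in log phase. Against log phase 8 of 8 members were called lower on day 2, where 41.5% of all genes were, with a median difference of -0.58 against -0.02 for all genes. On day 6 again 8 of 8 were called lower, beside 41.1% of all genes, and the medians were -0.98 and 0.00. On day 10 the count was 8 of 8 beside 39.8% of all genes, and the medians were -1.39 and -0.01. These 3 comparisons share the log phase arrays. The arrays of the day and of log phase did not overlap for any member in these comparisons. The same held for 82.6%, 86.4% and 83.7% of all genes on days 2, 6 and 10. Between days 2 and 6 the arrays did not overlap for 6 of 8 members and 3732 of 5449 genes. Between days 6 and 10 this held for 7 of 8 members and 3744 genes, and between days 2 and 10 for 7 of 8 and 3731. The differences ranged from -2.10 in ERP2 to -0.32 in ERP5 on day 2, from -2.91 in ERP2 to -0.36 in ERP6 on day 6, and from -2.53 in ERP2 to -0.57 in ERP6 on day 10.

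**Figure D1:**
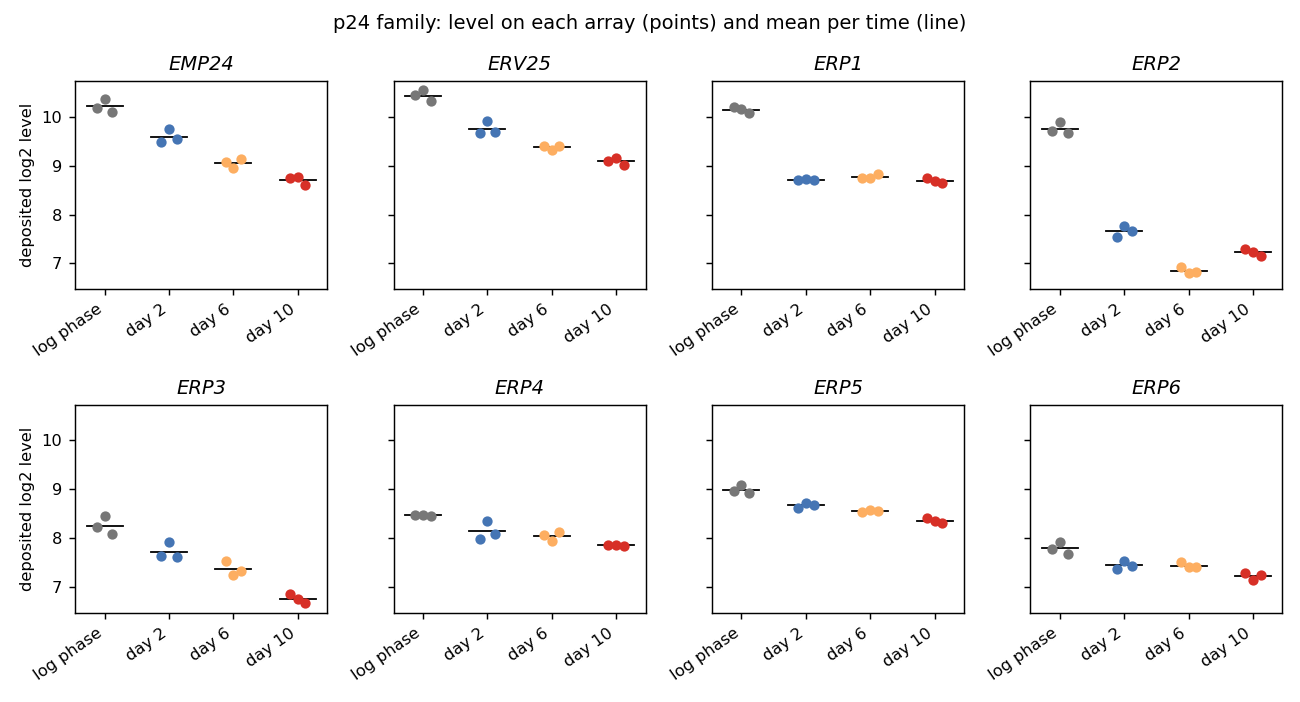
Deposited log2 level of each p24 gene (y axis) on the 3 arrays of each time (x axis, points), with the mean of each time as a line. For all 8 genes the log phase arrays lie above the arrays of every later day. The means of the 6 genes other than ERP1 and ERP2 fall at every step. In ERP4, ERP5 and ERP6 the step from day 2 to day 6 was not called.

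EMP24, the beta member, stood at 10.17, 10.37 and 10.11 in log phase, at 9.48, 9.75 and 9.55 on day 2, at 9.08, 8.94 and 9.13 on day 6 and at 8.74, 8.77 and 8.61 on day 10. Each time lay wholly below the one before it. Its differences from log phase were -0.62 ± 0.09, -1.16 ± 0.09 and -1.51 ± 0.09 on days 2, 6 and 10 (SE, n = 3 per time), the last of which is a 2.84-fold lower level. ERV25, the delta member and the direct partner of Emp24, gave 10.44, 10.54 and 10.32 in log phase, 9.67, 9.91 and 9.68 on day 2, 9.40, 9.31 and 9.41 on day 6 and 9.10, 9.16 and 9.02 on day 10. Its groups were likewise ordered without overlap, and it was at -0.68 ± 0.08, -1.06 ± 0.08 and -1.34 ± 0.08 on days 2, 6 and 10 against log phase. EMP24 had fallen further than ERV25 by day 10. Against log phase, the EMP24 minus ERV25 difference had shifted by 0.05 at day 2, by -0.10 at day 6 and by -0.17 at day 10, and its SD among arrays of a time was 0.04, 0.05 and 0.04. From day 2 to day 10 it shifted by -0.22, with an SD of 0.027.

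ERP1, the alpha subunit of the same complex, was low by day 2 and level from there on the deposited scale. Its levels were 10.20, 10.16 and 10.07 in log phase, 8.70, 8.73 and 8.70 on day 2, 8.74, 8.76 and 8.82 on day 6 and 8.75, 8.68 and 8.65 on day 10. The differences from log phase were -1.43 ± 0.05, -1.37 ± 0.05 and -1.45 ± 0.05, and the day 2 value was a 2.70-fold lower level. The 9 arrays of the stationary days spanned less than the gap to log phase, and no step between the stationary days was called for ERP1. Centred on the hybridisation controls described with the steps, ERP1 was called lower from day 2 to day 6 (-0.70, and -0.74 without the bioB probe sets) and from day 2 to day 10 (-0.57 and -0.61).

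ERP2, the gamma subunit, changed more than any other member against log phase, and it was the member whose level turned back. It stood at 9.71, 9.90 and 9.66 in log phase, at 7.55, 7.76 and 7.66 on day 2, at 6.93, 6.80 and 6.81 on day 6 and at 7.30, 7.23 and 7.15 on day 10. No time overlapped with another. Against log phase it was at -2.10 ± 0.08 on day 2, at -2.91 ± 0.08 on day 6 and at -2.53 ± 0.08 on day 10, which are 4.30-fold, 7.51-fold and 5.78-fold lower levels. Counted from the lowest difference of all 5449 genes, ERP2 ranked 25 on day 2, 7 on day 6 and 7 on day 10. In the same ranking ERP1 was at 196, 386 and 157 on days 2, 6 and 10. EMP24 was at 1168, 567 and 133 on these days, ERV25 at 1078, 671 and 224, and ERP3 at 1347, 871 and 137. ERP4, ERP5 and ERP6 lay between 967 and 1826 throughout.

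**Figure D2:**
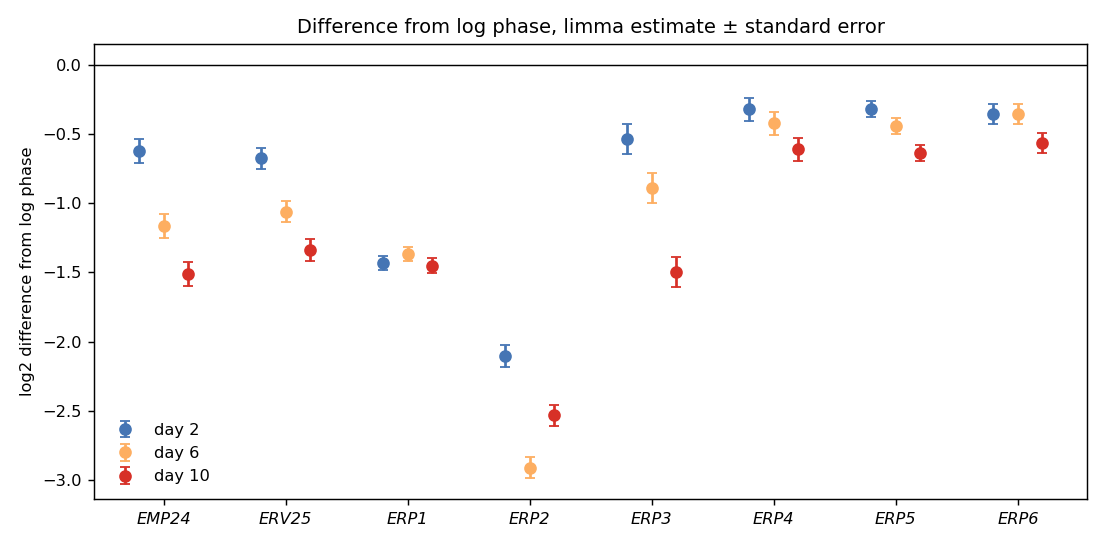
Log2 difference of each p24 gene (x axis) from log phase on days 2, 6 and 10 (y axis), as the limma estimate with its standard error, n = 3 arrays per time. ERP2 reaches -2.91 on day 6, ERP1 stays near -1.4 on all 3 days, and ERP4, ERP5 and ERP6 remain above -0.7.

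The gamma member ERP3, whose cargo is not well known, followed the course of EMP24 and ERV25. It gave 8.23, 8.46 and 8.08 in log phase, 7.63, 7.93 and 7.61 on day 2, 7.53, 7.25 and 7.32 on day 6 and 6.86, 6.75 and 6.67 on day 10, with no overlap between successive times. Its difference from log phase was -0.54 ± 0.11, -0.89 ± 0.11 and -1.50 ± 0.11 on days 2, 6 and 10. Its spread within a time, an SD of up to 0.19, was among the widest in the family.

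ERP4, ERP5 and ERP6 had the smallest differences on all 3 days. ERP4, a gamma member, was at 8.47, 8.48 and 8.45 in log phase, at 7.98, 8.36 and 8.10 on day 2, at 8.06, 7.94 and 8.13 on day 6 and at 7.86, 7.86 and 7.84 on day 10. Days 2 and 6 overlapped, and the second array of day 2 stood apart from the other 2 by more than the step between those days. ERP5, an alpha member, was at 8.97, 9.08 and 8.93 in log phase, at 8.61, 8.73 and 8.69 on day 2, at 8.53, 8.57 and 8.55 on day 6 and at 8.41, 8.35 and 8.32 on day 10, and its times did not overlap. ERP6, the other alpha member, was at 7.78, 7.93 and 7.68 in log phase, at 7.36, 7.53 and 7.44 on day 2, at 7.51, 7.41 and 7.40 on day 6 and at 7.30, 7.14 and 7.25 on day 10. For it too days 2 and 6 overlapped. On day 10 the 3 genes were at -0.61 ± 0.08, -0.64 ± 0.06 and -0.57 ± 0.07 against log phase, in the order ERP4, ERP5 and ERP6. Centred on the hybridisation controls without bioB, ERP4 and ERP5 were not called on day 2 (-0.37 each), and with the 3' minus 5' signal of control transcripts as a covariate ERP4 was not called on day 6 (-0.28).

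ERP1 and ERP6 are paralogues from the whole-genome duplication of yeast, as are ERP2 and ERP4, and in each pair the complex subunit had the larger fall. The difference of ERP6 from log phase was above that of ERP1 by 1.08 on day 2, 1.01 on day 6 and 0.88 on day 10, with an SD among arrays of a time of 0.09, 0.10 and 0.09. ERP4 was above ERP2 in the same sense by 1.78, 2.49 and 1.92, with an SD of 0.10, 0.11 and 0.09. The gap between the differences was thus many times the spread between arrays in both pairs. In ERP4 and ERP2 it was widest on day 6, the time of the lowest ERP2 level.

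**Figure D3:**
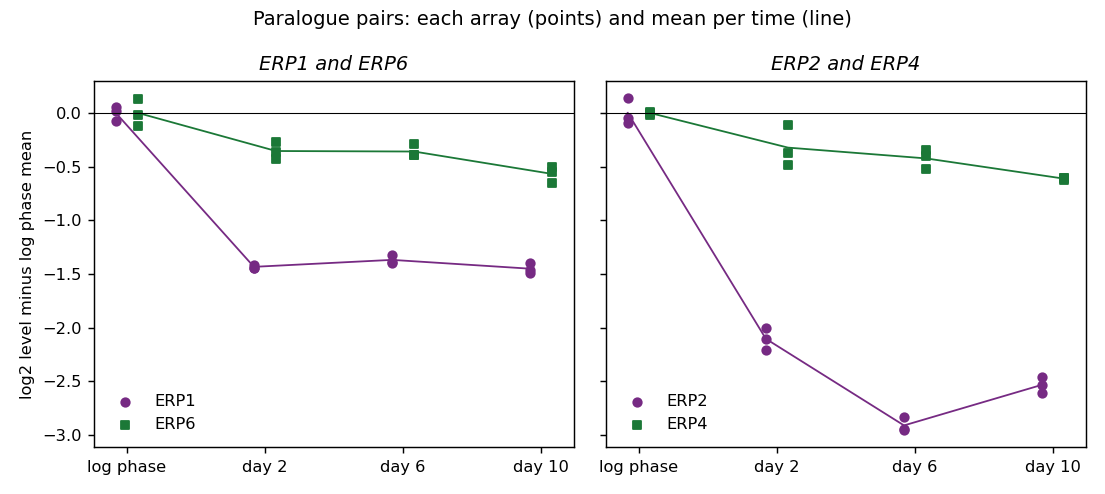
Log2 level minus the gene's own log phase mean (y axis) on each array of the 4 times (x axis) for the paralogues ERP1 and ERP6 and for ERP2 and ERP4, with a line through the time means. ERP1 and ERP2 lie below their paralogues on every stationary array, and only ERP2 turns upward at day 10.

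Between the stationary days the members parted. From day 2 to day 6, 4 of 8 members were called lower, beside 31.9% of all genes, and none higher. They were ERP2 at -0.81 ± 0.08, EMP24 at -0.54 ± 0.09, ERV25 at -0.38 ± 0.08 and ERP3 at -0.36 ± 0.11. ERP1, ERP4, ERP5 and ERP6 were not called, at 0.06, -0.10, -0.12 and -0.0048 on the log2 scale. The call of ERP3 was lost without day 2 replicate 2 (-0.25) and without day 6 replicate 2 (-0.30). From 3 members without day 2 replicate 2 or day 6 replicate 2 the count ran to 6 without day 2 replicate 1, where ERP4 (-0.18) and ERP5 (-0.16) were called as well.

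From day 6 to day 10, 5 of 8 members were called lower and 1 higher, beside 32.1% and 28.8% of all genes. ERP3 fell by 0.60 on the log2 scale (SE 0.11), EMP24 was at -0.35 ± 0.09, ERV25 at -0.28 ± 0.08, ERP6 at -0.21 ± 0.07 and ERP5 at -0.19 ± 0.06. ERP2 rose by 0.38 ± 0.08, a 1.30-fold higher level than on day 6. ERP1 at -0.08 and ERP4 at -0.19 were not called. The call of ERP6 was lost without day 6 replicate 1 and without day 10 replicate 2 (-0.17 each), and ERP4 was called without day 2 replicate 1 or 2 (-0.19) and without day 6 replicate 2 (-0.24). Over the whole interval from day 2 to day 10, 7 of 8 members were called lower, beside 32.1% of all genes, with a median of -0.37. ERP3 at -0.96 ± 0.11 and EMP24 at -0.89 ± 0.09 had the largest falls and ERP1 at -0.02 was not called on the deposited scale. ERP6, at -0.21 ± 0.07 over this interval, was not called without day 2 replicate 2 or without day 10 replicate 2 (-0.17 each).

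**Figure D4:**
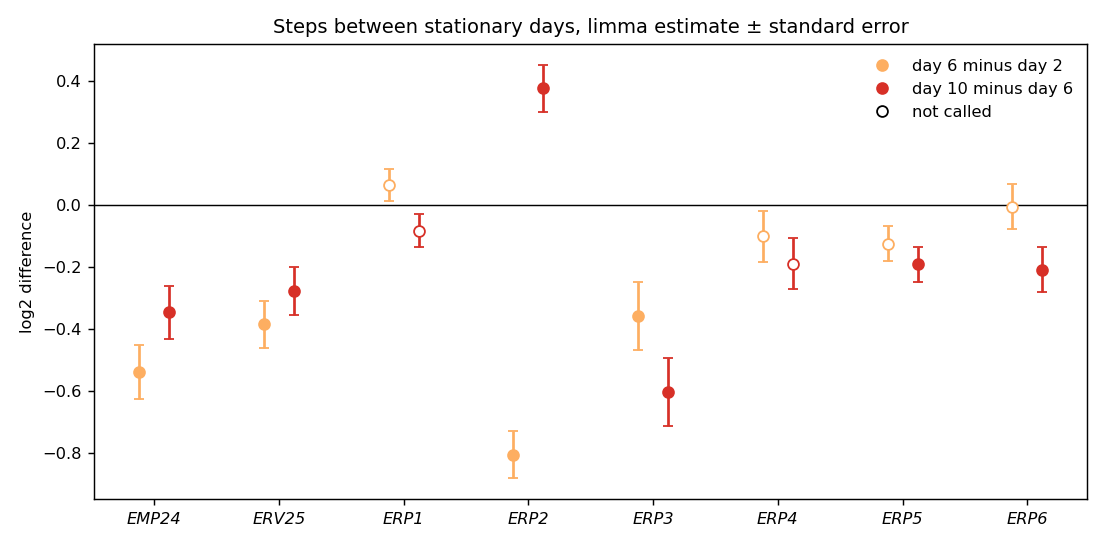
Log2 difference of each p24 gene (x axis) for day 6 minus day 2 and day 10 minus day 6 (y axis), as the limma estimate with its standard error, n = 3 arrays per time. Open circles were not called. ERP2 moves from -0.81 in the earlier step to 0.38 in the later one, and EMP24, ERV25 and ERP3 are below 0 in both.

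These steps depend on how arrays are scaled. Centring arrays on 27 bacterial and phage hybridisation control probe sets shifted the typical gene by -0.77 in the step to day 6, by 0.22 in the step to day 10 and by -0.55 over the whole interval. The members then counted 8 lower from day 2 to day 6, where 83.9% of all genes were lower. From day 6 to day 10 they counted 0 lower and 1 higher, beside 6.29% and 29.3% of all genes, and the 1 gene was ERP2, in the same direction as before. In the later step the median of the members became 0.020. Of the members called lower there on the deposited scale, ERP5 and ERP6 turned to 0.029 and 0.012. Against log phase the same centring moved all genes by -0.42, -1.19 and -0.97 on days 2, 6 and 10 and left 8 of 8 members lower each time, beside 55.7%, 83.6% and 81.2% of all genes. Among these controls the bioB probe sets set the log phase arrays apart. The bioB minus bioC signal was -2.17 ± 0.08 in log phase. It was -0.79 ± 0.04, -0.88 ± 0.02 and -0.89 ± 0.01 on days 2, 6 and 10 (SD, n = 3). The cause was not tested, and in comparisons with log phase this array difference cannot be told apart from time. Without the bioB probe sets the shifts were -0.05, -0.86 and -0.64, and 6, 8 and 8 members were lower beside 33.1%, 73.3% and 67.4% of all genes. A sign of RNA integrity also differed between the times. Averaged over 8 control genes, the signal at the 3' end exceeded that at the 5' end by 1.25 ± 0.07 in log phase, by 0.86 ± 0.24 at day 2, by 1.65 ± 0.05 at day 6 and by 1.28 ± 0.07 at day 10 (SD, n = 3). With this signal as a covariate 0 members were called from day 2 to day 6, where 1636 genes were called in place of 3659, and ERP2 was at -0.56 and at 0.26 in the steps to day 6 and to day 10, not called in either. Its part in the result was not tested further.

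The moderated F test called 8 of 8 members over the 4 times, beside 95.5% of all genes, and 7 of 8 among days 2, 6 and 10, all but ERP1, beside 85% of all genes. In 6 of 8 members, all but ERP1 and ERP2, the deposited mean fell at every step from log phase to day 10. This order was found in 5.58% of all genes and is given here without a test. It counts steps of any size, such as -0.0048 in ERP6 from day 2 to day 6. It also depends on the scaling: centred on the hybridisation controls, ERP5 and ERP6 did not fall from day 6 to day 10 (0.029 and 0.012). The members also varied together among arrays of a time. The second array was the highest of its 3 for 8 of 8 members on day 2 and for 7 of 8 in log phase, where it was so for 23.7% and 31.3% of all genes. On day 6 and day 10 no array was the highest for more than 5 members. Values of different members on 1 array are therefore not independent of each other. The count of members lower than in log phase stayed at 8 on each stationary day with any of the 12 arrays left out.

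Likeness of course was measured as the root mean square difference between the 4 time means of a pair of genes, each centred on its own mean, among 5261 genes above background. ERP4 and ERP5, of different subfamilies, were nearest to each other of all these genes, at 0.012 log2 units. ERP6 had ERP4 as its nearest family member, in place 5 at 0.04. EMP24 and ERV25 were 0.09 apart, ERV25 in place 8 for EMP24 and EMP24 in place 10 for ERV25, and ERP3 had EMP24 in place 12 at 0.11. ERP1 and ERP2 were far from the family: the nearest member to ERP1 was ERV25, in place 397 at 0.29, and to ERP2 it was ERP1, in place 173 at 0.57. Outside the family, the genes closest to ERP2 were ELO2 at 0.17 and AIM20 at 0.20, those closest to ERP1 were MDM20 and TAN1, both at 0.03, those closest to EMP24 were YER138W-A at 0.02 and EGT2 at 0.04, and those closest to ERV25 were PRO3 and TPM2 at 0.04. ELO1 at 0.05 and EMC10 at 0.05 were closest to ERP3, IPK1 and YHM2 at 0.03 to ERP4, YHM2 and GPM1 at 0.03 to ERP5, and PEP3 at 0.01 and ECM31 at 0.02 to ERP6. The mean course of the 8 members was closest to LSM12 at 0.02, followed by SHE1, TPM2, PTH2 and SFH5 at up to 0.05. SHE1 lay below background on days 6 and 10 (5.76 and 5.60), so its values there lie near the floor of the arrays. With 4 time means per gene many genes lie this near, and the measure is a description.

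Other genes of the early secretory pathway were counted in 9 lists, with 143 of 143 listed genes measured. Their counts stand beside the shares of all genes already given for lower calls, and beside 39%, 41.6% and 39.5% of all genes higher on days 2, 6 and 10. Counts centred on the hybridisation controls are read beside the centred shares of lower genes given with the steps. Higher under that centring were 16.6%, 6.53% and 6.99% of all genes on days 2, 6 and 10, and 27.2%, 9.95% and 10.8% without bioB. Most of the other ER to Golgi cargo receptors and vesicle proteins were lower too: on day 10, 12 of 14 were lower than in log phase and 1 higher, with a median of -0.74, and on day 6 the counts were 10 and 1 (median -0.68). Among them ERV14, the receptor of plasma membrane proteins, was at -1.18 ± 0.10 on day 10 and its homologue ERV15 at -1.64 ± 0.09. ERV29, the receptor of soluble vacuolar and secreted proteins, was at -1.05 ± 0.12 on that day. On day 6 ERV14 was at -1.53, the lowest of the list, and it was 0.36 higher on day 10 than on day 6. EMP46, a lectin-like receptor of glycoproteins, was the exception, higher by 1.51 ± 0.07 on day 2, 1.93 ± 0.07 on day 6 and 1.09 ± 0.07 on day 10 against log phase. Centred on the hybridisation controls EMP46 kept its direction, but it was not called on day 10 (0.12). Without bioB it was called there too (0.44).

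The COPII coat genes were mixed. On day 2, 4 of its 10 genes were lower than in log phase, close to the share of all genes, and 1 was higher, with a median of -0.12. On day 6 the counts were 6 and 2 (median -0.48) and on day 10 they were 6 and 1 (median -0.21). SAR1, the GTPase that starts coat assembly, was the lowest of them on day 10 at -1.34 ± 0.07. The coat subunit SEC13 was at -0.42 ± 0.08 and SEC12, the exchange factor of Sar1, at 0.07 ± 0.06 and not called. SFB2, a homologue of the cargo adaptor Sec24, was at -0.64 ± 0.06, -0.69 ± 0.06 and -0.22 ± 0.06 on days 2, 6 and 10, and rose by 0.46 ± 0.06 from day 6 to day 10. Centred on the hybridisation controls, 8 of the 10 were lower on day 2 and 10 of 10 on day 10, but without bioB 3 and 9. Of 11 genes of the COPI coat and its ARF regulators 9 were lower and 1 higher on day 10 (median -0.42) and 8 and 1 on day 6 (median -0.48). Among those lower on day 10 were the coat subunits RET3 at -1.39 ± 0.12 and SEC28 at -1.30 ± 0.08 and the GTPase ARF1 at -0.77 ± 0.07. Centred on the controls, with or without bioB, 11 of 11 were lower on day 10. Tethers, SNAREs and retrieval factors went both ways, with 8 of 20 lower and 8 higher on day 6 (median 0.0013) and 11 lower and 5 higher on day 10 (median -0.22). With control centring 20 were lower on day 10 and 0 higher, and 18 and 0 without bioB. On the deposited scale the HDEL receptor ERD2 was at -1.55 ± 0.10 on day 10. Also lower on that day were the SNARE BET1 at -1.22 ± 0.06 and the retrieval receptor RER1 at -1.16 ± 0.10.

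**Figure D5:**
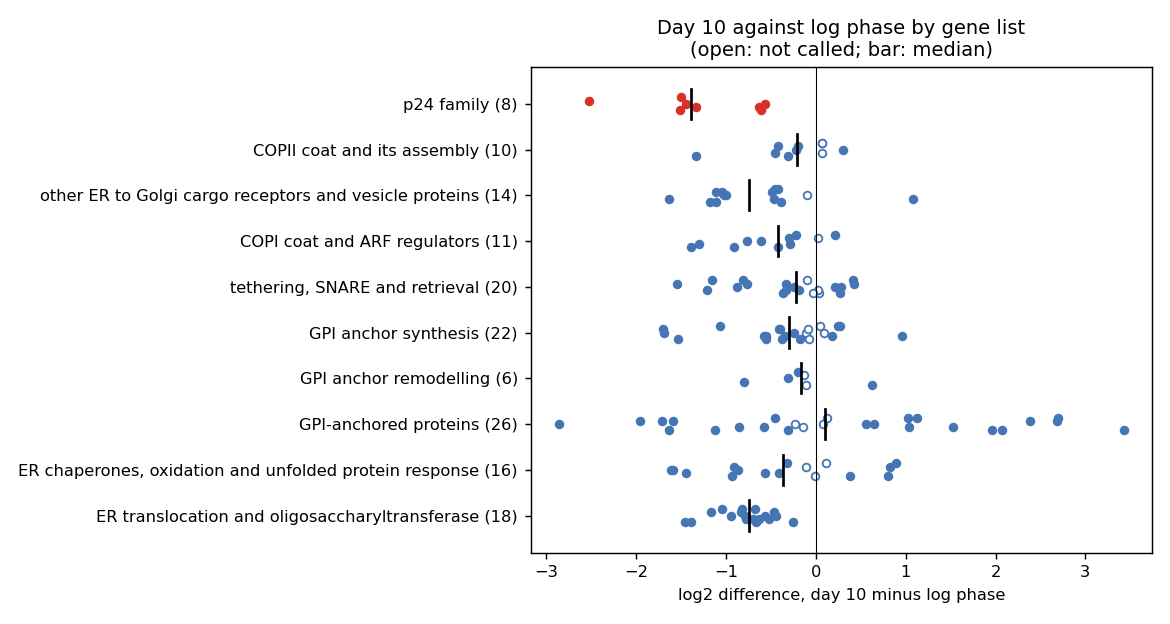
Log2 difference of day 10 minus log phase (x axis) for each gene (points) of the p24 family and of the 9 secretory pathway lists (rows, number of genes in brackets), with the median of each row as a bar. Open circles were not called. The p24 genes lie between -2.53 and -0.57, and the GPI-anchored proteins spread furthest, from -2.86 to 3.43.

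GPI-anchored proteins, the best known cargo of the p24 complex, also went both ways. Of 26 such genes 15 were higher on day 2 than in log phase and 9 lower (median 0.42). On day 6 there were 11 higher and 13 lower (median -0.23) and on day 10 there were 12 and 10 (median 0.10), shares close to those of all genes. Control centring gave 9 higher and 10 lower on day 2 (median -0.0037) and 7 higher and 15 lower on day 10 (median -0.87). Without bioB the counts were 13 and 9 on day 2 (median 0.37) and 10 and 14 on day 10 (median -0.54). GAS1, the standard cargo in studies of Emp24, was at -0.35 ± 0.07, -1.32 ± 0.07 and -0.32 ± 0.07 against log phase on the 3 days in turn, and rose by 1.01 ± 0.07 from day 6 to day 10. PST1, a cell wall protein, was higher by 3.43 ± 0.10 on day 10, while the transglycosylase UTR2 was at -2.86 ± 0.07 and the mannoprotein TIP1 at -1.96 ± 0.11. Of 22 genes that build the anchor 13 were lower and 4 higher on day 10 (median -0.30, and 21 lower and 0 higher centred on the controls with or without bioB), and on day 6 there were 11 and 4 (median -0.24). On day 10 the early step gene GPI15 was at -1.70 ± 0.11 and the inositol acyltransferase GWT1 at -1.69 ± 0.09. The ethanolamine phosphate transferase MCD4 was at -1.53 ± 0.08 on that day. Of the 6 anchor remodelling genes, whose products reshape the anchor's lipid and glycan, 2 were lower and 1 higher on day 6, and 3 lower and 1 higher on day 10. Centred on the controls 6 were lower and 0 higher on day 10, and 5 and 0 without bioB. The phospholipase gene PER1 was at -0.80 ± 0.08 on day 10. CWH43, which places ceramide in the anchor, was higher by 0.36 ± 0.06 on day 2 and was not called on days 6 and 10 (0.09 and -0.13). Centred on the controls it was not called on day 2 (-0.06, and 0.32 without bioB) and was lower on days 6 and 10 (-1.10 each). The inositol deacylase BST1 was higher at 0.62 ± 0.09 on day 10. Centred on the controls it was called lower (-0.35), and without bioB it was not called (-0.02).

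Upstream of vesicle export, the ER translocation and oligosaccharyltransferase genes were nearly all lower. On day 2, 17 of 18 were lower than in log phase (median -0.80), on day 6 again 17 (median -0.70) and on day 10, 18 of 18 (median -0.74), with SEC66 at -1.46 ± 0.06, OST2 at -1.38 ± 0.08 and OST6 at -1.04 ± 0.08. The ER chaperone, oxidation and unfolded protein response genes were divided, 12 of 16 lower and 4 higher on day 2 (12 lower and 2 higher centred on the controls), 11 lower and 3 higher on day 6, and 9 lower and 4 higher on day 10 (13 lower and 0 higher centred on the controls). Without bioB the centred counts were 12 and 3 on day 2 and 12 and 0 on day 10. The proline isomerase FPR2 was at -1.60 ± 0.10 and the disulphide isomerase MPD1 at -1.61 ± 0.09 on day 10. KAR2, the ER Hsp70, stood at 10.30, 10.43 and 10.30 in log phase, at 9.47, 9.42 and 9.54 on day 2, at 10.79, 10.71 and 10.59 on day 6 and at 10.23, 10.45 and 10.32 on day 10. It was lower than in log phase on day 2 (-0.87 ± 0.07), higher on day 6 (0.35 ± 0.07) and not called on day 10. KAR2 centred on the controls was called lower on days 6 and 10 (-0.83 and -0.98, and -0.50 and -0.65 without bioB). ERO1, the ER oxidase, was at -1.32 ± 0.07, -0.40 ± 0.07 and 0.38 ± 0.07 on days 2, 6 and 10. Centred on the controls it was called lower on day 10 (-0.59), and without bioB it was not called (-0.26). HAC1, the transcription factor of the unfolded protein response, was higher by 1.47 ± 0.11 on day 2 and 0.82 ± 0.11 on day 10 and was not called on day 6 (-0.13). HAC1 centred on the controls was called lower on day 6 (-1.32, and -0.99 without bioB) and was not called on day 10 (-0.14, and 0.18 without bioB).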

How the data were processed

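The deposited table holds log2 values, a scale taken from their range (5.11 to 13.79), which the authors summarised per probe set with PLIER per the submitters' processing notes. The PLIER version and how background and between-array differences were handled are not given in the sources used. No value lies near 0, so differences of dim genes are compressed. Of 10928 probe sets, 5498 matched 5449 S. cerevisiae genes by gene ID in a RefSeq table of the reference strain S288C. For 47 genes with several probe sets the one with the highest mean was kept. A linear model with 1 coefficient per time was fitted over the 12 arrays in limma 3.58.1, run under R 4.3.3 (8 residual degrees of freedom), with moderated F tests and 6 contrasts, adjusted by Benjamini-Hochberg over all genes at 0.05. The number of arrays limits the precision. On data simulated for day 2 against log phase, 52% of 50 genes changed by 0.25 and 100% of 50 changed by 1 were recovered among 5449. Far fewer genes were changed there than the 4387 called in this comparison of the real arrays. Its noise was drawn for each gene separately. These shares therefore do not give the recovery in the real fit.

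The members, the 9 lists and the tests were chosen with earlier results of these data known. All 8 members are named. From each list the 3 genes called by the F test over the 4 times with the largest range between time means are named, and always KAR2, HAC1, SAR1, SEC12, SEC13, ERV14, ERV29, BST1, PER1, ERD2, RER1 and GAS1. As nearest genes in course the 5 nearest to the family mean and the 2 nearest to each member are named. As alternatives, 16 was added to the linear values, arrays were quantile normalized, centred on their medians, or centred on 27 hybridisation control probe sets or the 18 other than bioB. Further alternatives were leaving out 188 dim genes, other treatments of several probe sets, a trend and robust prior, only the arrays compared, the replicate number as a block, the 3' minus 5' covariate and each array left out. No 2 arrays held identical values.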

Additional observations from a re-analysis of the deposited data

How the results depend on the processing

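Against log phase 8 of 8 members were lower on day 10 under every alternative run. The same held on day 6 except with the 3' minus 5' covariate, which gave 7, and on day 2 except with centring on the hybridisation controls without bioB, which gave 6. From day 2 to day 6 the count of lower members, 4, became 8 with either of the 2 centrings on controls, and 0 with the 3' minus 5' signal as covariate. From day 6 to day 10 the 5 lower members became 0 with either centring, and the 1 higher member became 0 with the covariate. From day 2 to day 10 the 7 lower members became 3 with the covariate. For day 10 against day 6 the median of the members became 0.020 centred on the controls and 0.013 without bioB. Of the members called lower in that step on the deposited scale, ERP5 turned to 0.029 and ERP6 to 0.012 centred on the controls. Without bioB they turned to 0.022 and 0.0041. The centring shifts all genes by a constant. The cause of the change with the covariate was not tested. With each array left out in turn the lower members numbered 8 to 8 for each stationary day against log phase, 3 to 6 from day 2 to day 6, 4 to 6 from day 6 to day 10 and 6 to 7 from day 2 to day 10. The higher members numbered 1 for day 10 against day 6 and 0 elsewhere. The F test called 8 members over the 4 times (8 to 8 with an array left out) and 7 among the stationary days (6 to 7). Over all genes, the 3659 calls between days 2 and 6 and the 3654 between days 2 and 10 became 1636 and 2425 with the covariate, and 3319 for day 10 against day 6 became 1938 centred on the controls and 1821 without bioB. Of 108 counts over the pathway lists, 72 moved by over 1.5 times centred on the controls, 49 of them downward, 64 without bioB and 39 with the covariate, 38 of them downward. The replicate block changed no call of a member (8, 8 and 8 lower against log phase). Deviations of same-numbered arrays correlated between -0.29 and 0.39 (median 0.01), and those of other arrays between -0.36 and 0.36 (median -0.02), so the numbers were not taken to pair the arrays, although 7 of 12 arrays matched best with their own number.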
